A study of Mus musculus with 3 samples.

Results

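Egr1 and 9 further immediate early genes that serum switches on, all outside the AP-1 family, were followed in newly made RNA of mouse pancreatic cancer cells. The 10 genes were chosen by name (Egr1, Egr2, Egr3, Ier2, Ier3, Ier5, Srf, Zfp36, Nr4a1 and Dusp1), with earlier results of these data known. Each matched 1 of the 22658 gene models in the deposited files. The cells were NB490, a mouse pancreatic cancer line selected with puromycin for a short hairpin RNA (shRNA) that doxycycline switches on and that targets PDX1, a pancreatic transcription factor. There were 3 Bru-seq libraries: cells left uninduced (doxycycline for 0 h), cells after 48 h of doxycycline, and cells grown out over more than 3 weeks of doxycycline. All were the same line, carried the same construct and were kept in medium with 10% fetal bovine serum. The labels name no serum withdrawal or serum pulse, so the values are levels of cells growing in serum and not a serum response. Bru-seq reads RNA that took up bromouridine, here at 2 mM for 30 min in conditioned medium, and so reports RNA made in that window. Loss of short-lived RNA within the window was not measured, so synthesis and early decay cannot be told apart. Each condition had 1 library and no replicate. No p-value was computed, every difference compares libraries and has no replicate check, and no library was analysed here of cells given the drug but lacking the hairpin. Nothing in the labels says whether the cultures were separate. In such bulk RNA, fewer cells transcribing a gene and less of its RNA per cell cannot be told apart.

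Immediate early genes are transcribed within minutes of a growth factor or serum signal, with no new protein needed. In the best known route, ERK kinase activates ternary complex factors such as ELK1, which sit with serum response factor (SRF) on CArG boxes. A parallel route runs through CREB on cyclic AMP response elements (CREs). Their products are mostly short-lived transcription factors, RNA decay factors and phosphatases, many of which damp the same signals.

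The 250 bases before the start site of 4 of the genes are printed. They were chosen to show each kind of element in a gene lower at 48 h and in a gene not different beyond counting error. Zfp36 and Srf hold CArG boxes, and Dusp1, Nr4a1 and also Srf hold CRE cores. Capitals mark CArG boxes and TGACG, the CRE core, on either strand. The sequences are from RefSeq on build GRCm38.p6, at chr7:28379229-28379478 for Zfp36, chr17:46556163-46556412 for Srf, chr17:26508473-26508722 for Dusp1 (minus strand for these 3) and chr15:101266596-101266845 for Nr4a1 (plus strand).
Zfp36: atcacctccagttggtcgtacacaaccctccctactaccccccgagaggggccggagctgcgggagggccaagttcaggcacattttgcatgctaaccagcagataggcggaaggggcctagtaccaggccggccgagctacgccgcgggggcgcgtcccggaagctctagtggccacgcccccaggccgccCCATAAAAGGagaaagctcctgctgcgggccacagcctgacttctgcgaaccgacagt
Srf: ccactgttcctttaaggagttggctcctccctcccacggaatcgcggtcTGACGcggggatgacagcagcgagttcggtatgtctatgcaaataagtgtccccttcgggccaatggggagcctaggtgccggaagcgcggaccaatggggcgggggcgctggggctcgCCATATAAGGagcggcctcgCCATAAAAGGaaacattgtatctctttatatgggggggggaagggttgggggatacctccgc
Dusp1: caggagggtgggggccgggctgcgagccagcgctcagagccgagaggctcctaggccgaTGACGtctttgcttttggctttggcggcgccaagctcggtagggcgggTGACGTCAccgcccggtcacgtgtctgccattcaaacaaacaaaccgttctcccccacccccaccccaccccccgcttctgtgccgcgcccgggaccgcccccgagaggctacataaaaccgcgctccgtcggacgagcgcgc
Nr4a1: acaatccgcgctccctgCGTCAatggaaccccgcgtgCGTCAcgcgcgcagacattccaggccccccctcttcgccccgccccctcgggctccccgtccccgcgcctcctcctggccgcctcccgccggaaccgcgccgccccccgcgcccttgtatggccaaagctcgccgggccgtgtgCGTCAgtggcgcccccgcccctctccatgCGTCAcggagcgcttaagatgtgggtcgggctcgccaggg

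Promoter windows were found for 7 of the 10 genes, and both strands were searched. Egr1, Egr3 and Ier2 had no window, so nothing is said here of their promoters. A gene counted where any of its windows held the motif, and Egr2 had several windows, which gives it more room for a match. A CArG box was found for 3 of these 7 genes, Egr2, Srf and Zfp36, against 1.62% of the 27025 genes with a window. Srf had a pair of them, 82 and 62 bases before its start at their far ends. TGACG was found for 4 of 7, Dusp1, Egr2, Nr4a1 and Srf, against 19.8% of genes, and the full element TGACGTCA, which holds TGACG on both strands, for Dusp1 alone among the 7, against 1.77%. The ETS core CCGGAA, which ternary complex factors can contact, was found for Egr2, Nr4a1, Srf and Zfp36, against 13.6% of genes. A match to the EGR consensus GCGNGGGCG was found for Nr4a1, Srf and Zfp36, against 5.33%. TATAA was found for Egr2, Ier3, Ier5 and Srf, against 25.8%, and in Srf 1 match lies inside a CArG box. Of the motifs searched, Ier3 and Ier5 held TATAA alone in this window, which says nothing of sites elsewhere. The map of motif matches shows where they lie.

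**Figure D1:**
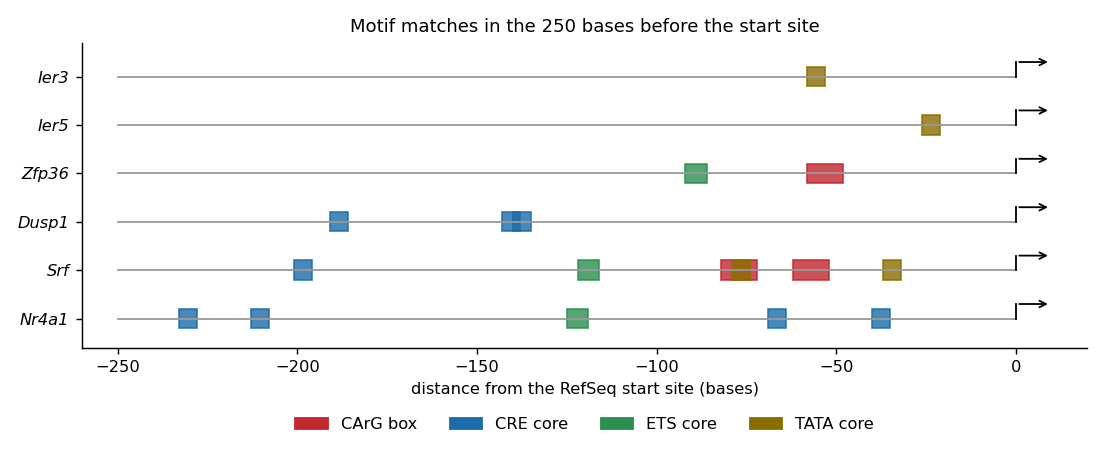
Motif matches in the 250 bases before the RefSeq start site (0, arrow) of 6 early response genes, with distance in bases on the horizontal axis. Boxes are matches on either strand to the CArG box, the CRE core, the ETS core and the TATA core, and Srf has a pair of CArG boxes where Zfp36 has 1.

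The deposited RPKM, reads scaled by gene model length and by the library's total, rested on 51006774 reads for uninduced cells, 48418864 after 48 h and 41632296 for grown-out cells. Pdx1, the shRNA target, had 1.59, 1.05 and 1.41 RPKM of nascent RNA in the same order, which does not measure its mRNA or protein. The duct genes Krt19, Krt8 and Krt18 had at least 8.01 RPKM in every library, whereas Sox9 and Epcam, also on the list of 9 duct and epithelial markers, were below 0.5 RPKM. Of the 7 such markers measured, 6 were lower and 1 was higher at 48 h than in uninduced cells by more than counting error. Their median log2 ratio was -0.25, and 1 was lower and 2 higher in grown-out cells, with -0.08. Over all measured genes, 30.0% were lower and 30.1% higher at 48 h, and 29.5% were lower and 33.6% higher in grown-out cells. The summed level of the 9 markers was 49.4, 41.2 and 45.8 RPKM, and their part in the values below was not tested. Of 33 markers of fibroblast, immune, endothelial, acinar and endocrine cells, Cd68 alone reached 0.5 RPKM, at 0.994, 0.916 and 0.901 RPKM. Summed levels per library were 0.0534 to 0.0891 RPKM for 8 fibroblast, 0.902 to 0.996 for 8 immune, 0.213 to 0.226 for 6 endothelial, 0.0811 to 0.105 for 5 acinar and 0.143 to 0.229 for 6 endocrine genes. Ins1, Ins2, Gcg, Sst, Ptf1a and Cd3e were among those at 0 reads in the uninduced library.

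The 10 models are short. They run from 1199 bases for Ier3 to 9324 for Srf, and none overlaps another model on either strand, whereas the median length over measured genes was 21790 bases. A gene counted as measured where its mean over the libraries was at least 0.5 RPKM, which 7915 models met. Egr1, Ier2, Ier3, Ier5, Zfp36 and Dusp1 were measured, and each was above 0.5 RPKM in every library. Srf, Nr4a1, Egr3 and Egr2 were below the minimum and are given by their levels. Together the 10 models took 122 RPM (reads scaled to the library's total, with no correction for length) in uninduced cells, 57.9 RPM after 48 h and 62.2 RPM in grown-out cells. Ier3 supplied 42.3%, 43.0% and 43.3% of these reads, a steady share, while the share of Egr1 was 27.1%, 16.3% and 7.67%.

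**Figure D2:**
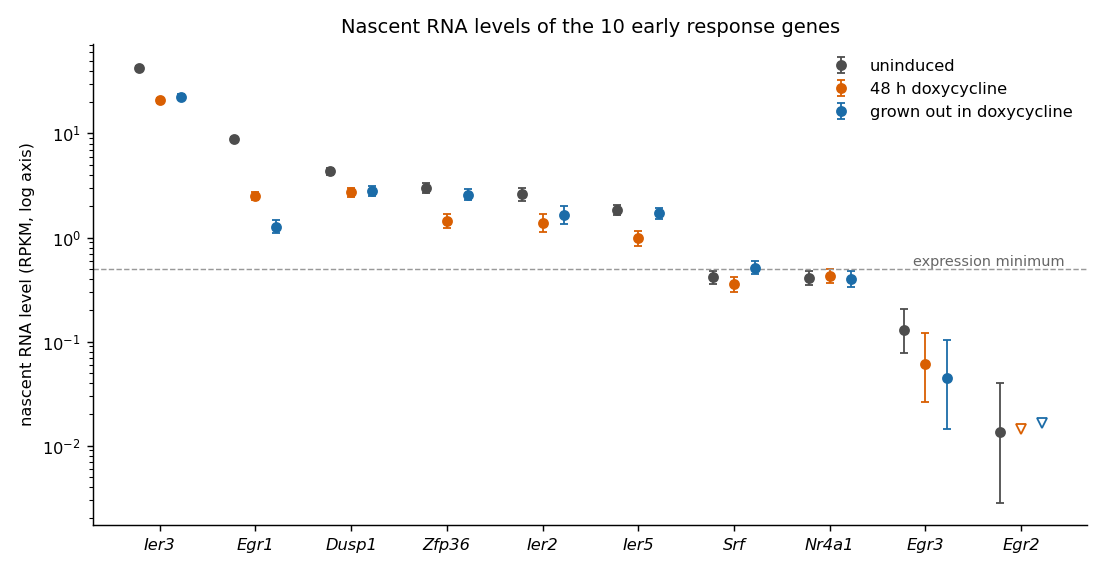
Nascent RNA level (RPKM, log axis) of each of the 10 genes in the uninduced, 48 h doxycycline and grown-out libraries. Points are single libraries, bars exact Poisson 95% intervals that cover counting error only, and open triangles the limit of 3 reads for Egr2 where no read was seen; Egr1 lies below Dusp1, Zfp36, Ier2 and Ier5 in grown-out cells.

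Egr1 encodes a zinc finger transcription factor that binds GC-rich sites in growth factor and stress genes. Its model lies on chromosome 18 from 35020861 to 35024610 on the plus strand, in the coordinates of the files. It had 1685 reads in uninduced cells, 457 after 48 h and 199 in grown-out cells, which gave 8.81 RPKM (95% Poisson interval 8.39 to 9.24), 2.52 RPKM (2.29 to 2.76) and 1.27 RPKM (1.10 to 1.46). The 3 intervals did not overlap. At 48 h Egr1 had 3.50-fold less nascent RNA than in uninduced cells (exact conditional binomial 95% interval 3.16 to 3.89). Its log2 ratio was the fifth-lowest of the 7915 measured genes. In grown-out cells Egr1 was 6.92-fold lower than in uninduced cells (5.97 to 8.06), with the second-lowest ratio. Grown-out cells had 1.98-fold less than cells at 48 h (1.67 to 2.35). All intervals on reads and ratios here cover counting error only, and repeat reads of 1 molecule could make them too narrow.

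Egr2 and Egr3, which encode close relatives of EGR1 with the same kind of zinc fingers, had very little nascent RNA. Egr3 (chromosome 14, 70477252 to 70479964) had 18 reads in uninduced cells, 8 at 48 h and 5 in grown-out cells, or 0.130, 0.0609 and 0.0443 RPKM. Grown-out cells had 2.94-fold less than uninduced cells (1.05 to 10.1), and for cells at 48 h the interval included no change (2.14-fold less, 0.884 to 5.68). Egr2 (chromosome 10, 67000617 to 67004936) had 3 reads in uninduced cells and 0 in both doxycycline libraries, where a count of 0 allows up to 3 reads, or 0.0143 RPKM at 48 h and 0.0167 RPKM in grown-out cells. This limit is used for counts of 0 in place of the Poisson interval. No difference was detectable for Egr2 at this depth. Egr4, the remaining paralog, had 0 reads in each of the 3 libraries.

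Ier2, Ier3 and Ier5 are 3 genes that share the name immediate early response but not 1 protein family; IER3 modulates apoptosis and ERK signalling, and IER2 and IER5 are related nuclear proteins. Ier3 (chromosome 17, 35958658 to 35959856, plus strand) had the highest nascent RNA level of the 10 in every library. It had 42.9 RPKM in uninduced cells (41.3 to 44.6), then 20.8 RPKM at 48 h (19.6 to 22.0) and, when grown out, 22.5 RPKM (21.2 to 23.8), and in uninduced cells it ranked as gene 21 of those measured. Against uninduced cells its level was 2.07-fold lower at 48 h (1.93 to 2.21), and grown-out cells were 1.91-fold lower (1.78 to 2.05). The doxycycline libraries differed by less than counting error, with a ratio of 1.08 (0.996 to 1.17) for grown-out over 48 h. Ier2 (chromosome 8, 87185230 to 87186751, minus strand) had 2.60 RPKM in uninduced cells, 1.37 at 48 h and 1.66 in grown-out cells, on 202, 101 and 105 reads. It was 1.89-fold lower at 48 h (1.48 to 2.42), and grown-out cells were 1.56-fold lower (1.23 to 2.00). Ier5 (chromosome 1, 156943497 to 156946766, minus strand) had 1.83 RPKM in uninduced cells, 0.979 at 48 h and 1.70 in grown-out cells. It was 1.87-fold lower at 48 h (1.54 to 2.29), but in grown-out cells its level was not beyond counting error of the uninduced one (1.08-fold lower, 0.906 to 1.28). Grown-out cells had 1.74-fold more Ier5 than cells at 48 h (1.41 to 2.14).

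Zfp36 and Dusp1 encode brakes on signalling: ZFP36, or tristetraprolin, binds AU-rich elements and speeds the decay of cytokine mRNAs, and DUSP1 removes phosphate from p38, JNK and ERK kinases. Zfp36 (chromosome 7, 29161803 to 29164247, minus strand) had 3.00 RPKM in uninduced cells (2.70 to 3.32), then 1.45 at 48 h (1.24 to 1.68) and, when grown out, 2.59 (2.29 to 2.92). It was 2.07-fold lower at 48 h (1.72 to 2.49), while the grown-out value was not beyond counting error of the uninduced one (1.16-fold lower, 0.986 to 1.36). Grown-out cells had 1.79-fold more than cells at 48 h (1.47 to 2.18). Dusp1 (chromosome 17, 26642536 to 26645417, minus strand) had 4.31 RPKM in uninduced cells (3.98 to 4.66), then 2.73 at 48 h (2.46 to 3.01) and, when grown out, 2.78 (2.49 to 3.09). It was 1.58-fold lower at 48 h (1.39 to 1.801), grown-out cells were 1.55-fold lower (1.36 to 1.78), and the doxycycline libraries had a ratio of 1.02 (0.876 to 1.18).

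Srf, which encodes the factor that binds CArG boxes, and Nr4a1, an orphan nuclear receptor gene also known as Nur77, were low, and no ratio between libraries passed 1.45-fold for either. Among the 10 genes, these are the ones with a model over 5 kb, each with 7 exons. Srf (chromosome 17, 46683788 to 46693111, minus strand) had 0.414 RPKM in uninduced cells, 0.354 at 48 h and 0.512 in grown-out cells, on 197, 160 and 199 reads. At 48 h it was 1.17-fold lower (0.945 to 1.45), which includes no change, and in grown-out cells 1.24-fold higher (1.01 to 1.51) than in uninduced cells. Grown-out cells had 1.45-fold more than cells at 48 h (1.17 to 1.79). Nr4a1 (chromosome 15, 101097277 to 101105225, plus strand) had 0.407, 0.429 and 0.399 RPKM in the order uninduced, 48 h, grown out. Its ratio was 1.05-fold higher at 48 h (0.844 to 1.32) and 1.02-fold lower in grown-out cells (0.807 to 1.29), so no difference was detectable within those bounds. Zfp36 and Srf, both with CArG boxes, had ratios of 2.07-fold lower and 1.17-fold lower at 48 h. Dusp1 and Nr4a1, both with TGACG, had 1.58-fold lower and 1.05-fold higher. Srf holds TGACG as well. These promoters were chosen for that contrast, so the pairs say nothing of a part of either element, which was not tested.

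**Figure D3:**
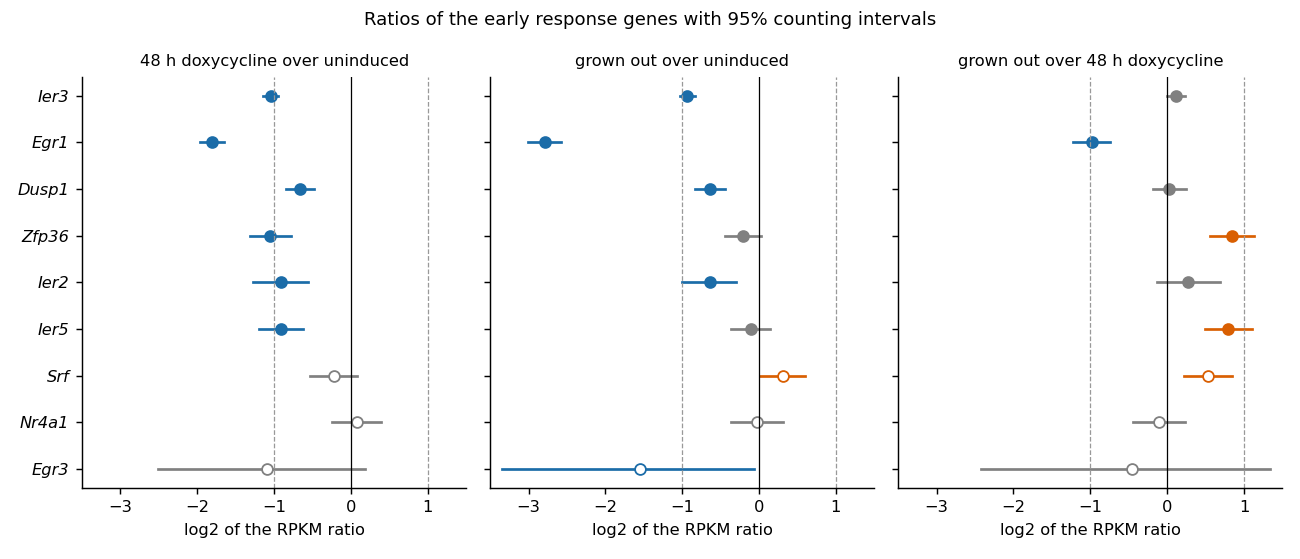
Log2 of the RPKM ratio (no pseudocount) with exact conditional binomial 95% intervals, for 48 h over uninduced, grown out over uninduced and grown out over 48 h; filled points are measured genes, open points genes below the expression minimum, blue lower and orange higher beyond counting error, and dashed lines 2-fold. Egr2 is not drawn because it had 0 reads in both doxycycline libraries; Egr1 lies farthest to the left in the first and the second panel among the measured genes.

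At 48 h, all 6 measured members were lower than in uninduced cells beyond counting error (no change lay outside the interval), where 30.0% of all measured genes were. None was higher, against 30.1% of measured genes. Past 2-fold, meaning also a ratio of RPKM plus a pseudocount of 0.05 of at least that size, 3 of 6 were lower (Egr1, Ier3 and Zfp36), against 0.720% of measured genes, and 0 were higher, against 0.0379%. The median log2 ratio was -0.96 over the 6 and 0.00 over all measured genes. The members were chosen with earlier results of these data known, so the shares here and for grown-out cells are no independent test of them. Among the 2219 measured models of up to 10 kb, a length class that fits the members better, 24.7% were lower beyond counting error. In that class 356 models were higher, a smaller share than over all measured genes, 2.12% were past 2-fold lower and the median was -0.03. With a pseudocount of 0.5, Zfp36 was no longer past 2-fold, at a log2 ratio of -0.84.

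In grown-out cells, 4 of the 6 were lower than in uninduced cells beyond counting error (Egr1, Ier3, Ier2 and Dusp1), where 29.5% of measured genes were, and 0 were higher, where 33.6% were. Past 2-fold, Egr1 alone was lower, against 0.720%, and 0 were higher, against 0.164%. The median log2 ratio was -0.63, beside 0.01 over all measured genes and -0.04 over models of up to 10 kb. Of these 2219 models, 587 were lower and 414 higher beyond counting error, and 1.76% were past 2-fold lower. Against 48 h, grown-out cells had Ier5 and Zfp36 higher beyond counting error, 2 of 6 where 35.6% of measured genes were, and Egr1 lower, 1 of 6 where 32.0% were, with 0 of 6 past 2-fold either way (0.708% of measured genes were past it higher and 0.316% lower). With 6 genes, these counts lie near that background and are no result about the members. The comparisons share libraries: each library serves in 2 of the 3, and a low value in 1 library enters both.

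**Figure D4:**
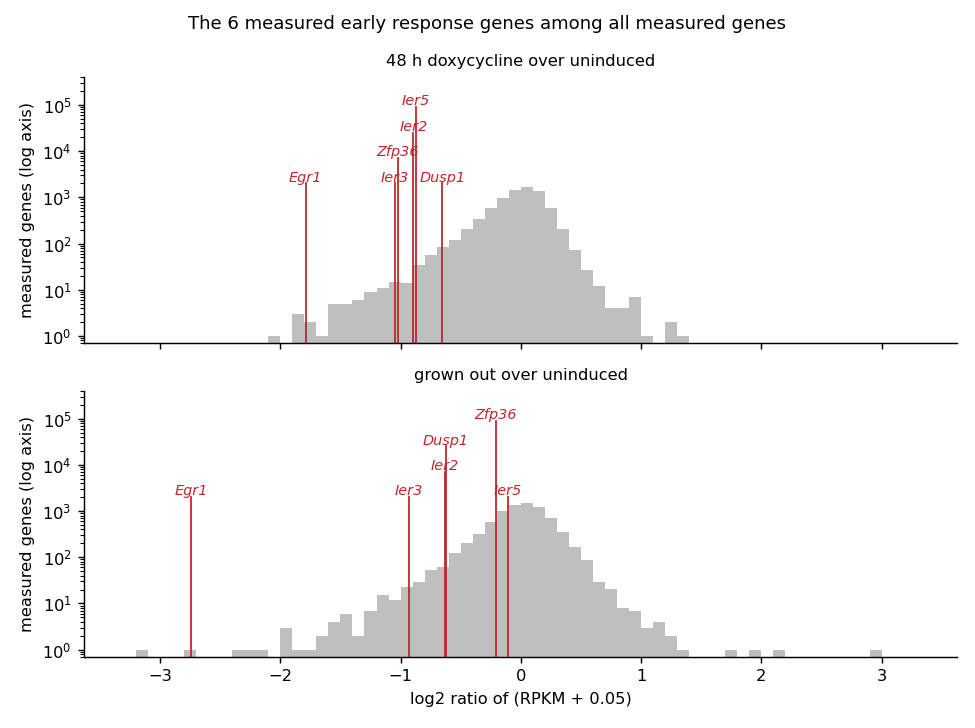
Histogram of log2 ratios of RPKM plus 0.05 over the 7915 measured genes (grey, log axis of gene number), with the 6 measured early response genes as red lines whose heights have no meaning. At 48 h the 6 lie between -1.79 and -0.65, and in grown-out cells between -2.74 and -0.10.

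The order of the genes by level differed between libraries, most for Egr1. In uninduced cells it ran Ier3, Egr1, Dusp1, Zfp36, Ier2, Ier5, Srf, Nr4a1, Egr3 and Egr2, and the neighbours whose intervals overlapped were Zfp36 with Ier2 and Srf with Nr4a1. At 48 h Dusp1 stood before Egr1, and Nr4a1 before Srf, with overlapping intervals in both cases. In grown-out cells Egr1 came sixth, after Dusp1, Zfp36, Ier5 and Ier2, and its interval overlapped that of Ier2. Ier5 there stood before Ier2, also with overlapping intervals. Ratios between genes of 1 library do not depend on the library total. Egr1 had 0.205 of the RPKM of Ier3 in uninduced cells (0.193 to 0.218), then 0.121 at 48 h (0.108 to 0.135) and, when grown out, 0.0566 (0.0484 to 0.0658), so it was lower relative to Ier3 too. Relative to Dusp1, Egr1 had a ratio of 2.04, 0.922 and 0.458 in the same order. Zfp36 over Dusp1 was 0.695 in uninduced cells (0.610 to 0.791), then 0.531 at 48 h (0.441 to 0.638) and, when grown out, 0.932 (0.790 to 1.10).

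By the pair of log2 ratios to the uninduced library, the 15 pairs among the 6 measured members were nearest for Ier5 with Zfp36, at a Euclidean distance of 0.18, and for Ier2 with Dusp1, at 0.24. Egr1 was at least 1.96 from each of the others. The genes nearest to Egr1 among all measured, over 3 libraries, were 8430408G22Rik at 0.44, Txnip at 0.76, A930038C07Rik at 0.83, Sepp1 at 0.85 and Ly6e at 0.88. Of these, 8430408G22Rik had 1.31 RPKM in uninduced cells, 0.353 at 48 h and 0.0999 in grown-out cells. It met the expression minimum only through the uninduced library, so its low ratios are partly set by that minimum. Idi1 and Hes1 were among the 3 nearest to Ier2, Insig1 and Twist2 to Ier3, Muc1 and Crip1 to Ier5, Fzd5 and Tcf19 to Zfp36, and Maff and Klf11 to Dusp1. These distances describe 3 libraries and share the uninduced one.

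Related genes were counted in lists, and no difference between lists was tested. The lists too were chosen with earlier results of these data known, so their counts beside the background are no independent test. Over all measured genes, 30.0% were lower and 30.1% higher beyond counting error at 48 h, 29.5% were lower and 33.6% higher in grown-out cells, and 0.720% were past 2-fold lower in each. Some genes stand in more than 1 list: Dusp4 and Dusp5 are among both the paralogs and the ERK feedback genes, and Cxcl1, Myc, Pim1 and Ptgs2 among both the other immediate early genes and the ZFP36 targets. Among paralogs, all 5 measured were lower at 48 h beyond counting error, with a median log2 ratio of -0.41, and 3 of 5 in grown-out cells, at -0.30. Zfp36l2, which encodes another RNA decay factor of the ZFP36 family, had 15.7 RPKM at 48 h and 26.4 in grown-out cells, against 34.7 in uninduced cells. Zfp36l1 differed in order, at 6.18 RPKM at 48 h and 4.86 in grown-out cells, against 10.8 in uninduced cells. Nr4a2 had 1.23 RPKM at 48 h and 1.50 in grown-out cells, against 1.55 in uninduced cells, while Nr4a3, like Nr4a1 an orphan receptor gene of that family, had at most 0.000748 RPKM. All 6 measured AP-1 genes were lower at 48 h, with a median of -0.81, and 5 of 6 in grown-out cells, with -0.78, beside backgrounds of 30.0% and 29.5% lower. Jund (0.671 RPKM uninduced, 0.459 at 48 h, 0.401 grown out) and Atf3 (0.922, 0.397 and 0.398) met the expression minimum only through the uninduced library. The same holds for Maff (0.671, 0.416 and 0.430) among the other immediate early genes. That these 3 count as lower is thus partly set by the minimum. Of 33 other measured immediate early genes, 28 were lower and 2 higher at 48 h, where 30.0% of all measured genes were lower and 30.1% higher, with a median of -0.49. Of these, 6 were past 2-fold lower, against 0.720% of all measured genes and 2.12% of models up to 10 kb. In grown-out cells 21 were lower and 7 higher, with a median of -0.24. Klf10, a zinc finger repressor gene, was nearer to the uninduced level when grown out than at 48 h, as Zfp36 was, with 2.11 RPKM at 48 h and 5.26 in grown-out cells, against 4.99 in uninduced cells. Btg2, an antiproliferative gene, was lowest in grown-out cells, as Egr1 was, with 0.696 RPKM at 48 h and 0.336 in grown-out cells, against 1.48 in uninduced cells. Errfi1, an inhibitor of EGF receptors, had 15.7 and 12.4 RPKM, against 28.5 in uninduced cells.

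**Figure D5:**
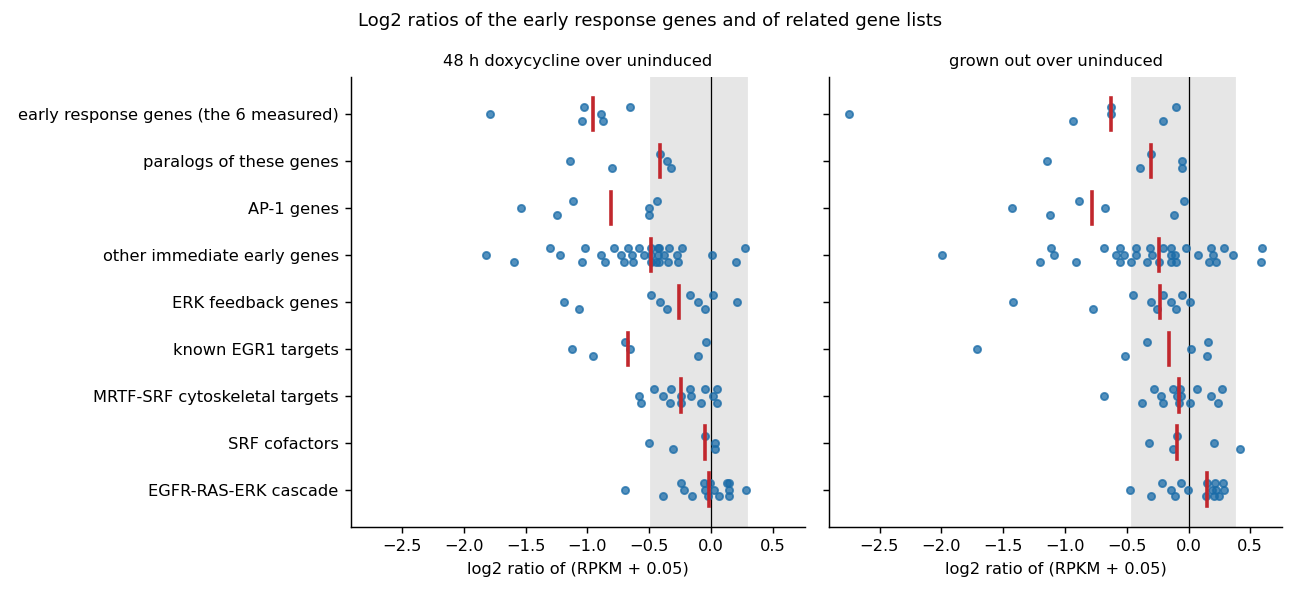
Log2 ratios of RPKM plus 0.05 for measured genes of each list at 48 h (left) and in grown-out cells (right) over uninduced cells; points are genes, red bars list medians and the grey band the middle 90% of all measured genes. Medians at 48 h are -0.96 for the 6 early response genes, -0.05 for SRF cofactors and -0.01 for the EGFR-RAS-ERK cascade.

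For genes that encode the upstream machinery, counts in several cases lay near the shares over all measured genes, which were 30.0% lower and 30.1% higher at 48 h and 29.5% lower and 33.6% higher in grown-out cells. Of 5 measured SRF cofactor genes, 2 were lower and 1 higher at 48 h beyond counting error, with a median log2 ratio of -0.05, and 3 were lower and 2 higher in grown-out cells, with -0.09. Elk3, a ternary complex factor gene, had 1.31 RPKM at 48 h and 1.50 in grown-out cells, against 1.88 in uninduced cells, and Elk4, another, had 3.20 and 3.73 RPKM, against 3.98. Mkl1, an actin-regulated SRF cofactor gene, had 2.23 and 2.54 RPKM, against 2.19. Of 16 measured genes of the EGFR-RAS-ERK cascade, 6 were lower and 5 higher at 48 h, with a median of -0.01, and 4 were lower and 8 higher in grown-out cells, with 0.15, beside a median of 0.01 over all measured genes. None of either list was past 2-fold at 48 h or in grown-out cells. Of all measured genes, 0.720% were past it lower in each, and 0.0379% and 0.164% higher. With 5 and 16 genes, a count of 0 lies near that background and is no result about these genes. Mapk3, which encodes ERK1, had 0.520 RPKM at 48 h and 0.807 in grown-out cells, against 0.874 in uninduced cells. These are nascent RNA values of the cascade and not its activity.

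Genes downstream of the same signals are set beside the same backgrounds, 30.0% lower and 30.1% higher at 48 h, and 29.5% lower and 33.6% higher in grown-out cells. Of 10 measured ERK feedback genes, 8 were lower and 1 higher at 48 h, with a median of -0.26, and 7 were lower and 0 higher in grown-out cells, with -0.23. Among them Dusp6, which encodes a phosphatase of ERK, had 8.23 and 11.0 RPKM, against 18.9 in uninduced cells. The 15 measured cytoskeletal genes that SRF drives with actin-regulated cofactors had 11 lower and 0 higher at 48 h, with a median of -0.24. In grown-out cells 8 were lower and 4 higher, with -0.08. At 48 h 0 of the 15 were past 2-fold, where 0.720% of measured genes were past it lower and 0.0379% higher. With 15 genes, that count lies near the background and is no result about them. Flna, which encodes filamin A, had 3.83 and 4.93 RPKM, against 5.76 in uninduced cells, and Actb had 36.1 and 42.2, against 34.9. Of 6 measured genes known as EGR1 targets, 5 were lower and 0 higher at 48 h, with a median of -0.67, and 3 were lower and 2 higher in grown-out cells, with -0.16. They did not share 1 course: F3, the tissue factor gene, had 2.49 RPKM at 48 h and 5.56 in grown-out cells, against 5.49 in uninduced cells, whereas the fibronectin gene Fn1 had 1.57 and 0.731 RPKM, against 2.51. Nab1, an EGR corepressor gene, had 1.47 and 1.62 RPKM, against 1.81, and Nab2, which EGR factors are known to switch on, was below the minimum, at 0.0678 and 0.0955 RPKM, against 0.112. Of the p38 and JNK genes, whose products DUSP1 acts on, 3 were measured; 2 were higher and 0 lower at 48 h, with a median of 0.08, and 1 was higher in grown-out cells, with -0.02. All 5 measured genes whose mRNA ZFP36 is known to destabilise were lower at 48 h, with a median of -0.42, and 3 were lower and 1 higher in grown-out cells, with -0.14. Of these, Cxcl1, a neutrophil chemokine gene, had 2.60 and 5.75 RPKM, against 9.28 in uninduced cells. Decay of mRNA made before the label does not enter such nascent values, and decay during the label was not measured.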

How the data were processed

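Newly made RNA was measured in 3 libraries, 1 per condition, grouped by their titles. Software in the submitters' processing notes was bedtools 2.16.2, TopHat 1.4.1, Bowtie 0.12.8 and CASAVA 1.8.2, with no settings. The same notes list the human build hg19, although the models carry mouse symbols. The start of 0 of the 10 members lies within 10 bp of its GRCm38.p6 start, so coordinates are as deposited, and their build was not given in the sources used here. Per the file headers, the deposited estimated counts are reads per whole gene model, with both introns and exons. Between 47.3% and 48.5% of counts above 0 were whole, within 0.01 of a read, and at least 99.98% of those below 5000 lay on steps of 1/52 of a read, within 0.1 of a step. The deposited RPKM scales them by model length and a library total, and the deposited signal column, reads per base, was not needed.

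Of 22658 models, 138 with a repeated symbol or a span over 3 Mb were left out, and measured models had a mean of at least 0.5 RPKM and a length of at least 300 bp. Ratios are of RPKM, with exact conditional binomial 95% intervals, and levels have exact Poisson ones (SciPy 1.17.1), evaluated at the deposited fractional counts. A list is counted over all its measured genes. Being past 2-fold, with a pseudocount of 0.05 RPKM, understates changes of low genes. The interval code was checked on simulated counts. Alternatives changed the pseudocount, the minimums and the scaling (edgeR 4.0.16, DESeq2 1.42.0). The class of models up to 10 kb was chosen after seeing the data, and the members and lists were chosen with earlier results of these data known. Named besides the members were up to 4 genes per list with the largest ratio, the genes nearest to Egr1 (5) and to each other measured member (3), of which some are given, and the neighbours of each model. Klf10, Mkl1, Actb, Nr4a2, Nr4a3, Nab2, Cd68 and the other cell type markers were named after their values were seen where that rule did not name them. Promoters came from the RefSeq table of GRCm38.p6; CArG boxes were searched as a pattern of 10 bases.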

Additional observations from a re-analysis of the deposited data

Results flagged for a closer look

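Genes named by the rule were singled out where their 48 h and grown-out values lay on opposite sides of the uninduced one, beyond counting error in both. No member did so. The share of all measured genes that did so is not given here, so this is no result about the members or the lists. With 1 library per condition, the difference between the 2 doxycycline conditions was not tested. Id1, an early BMP and serum response gene, had log2 ratios of -1.60 at 48 h and 0.59 in grown-out cells. Tagln2, an SRF target gene, had -0.57 and 0.18, and Vegfa, a growth factor gene, had -0.32 and 0.18. Rps6ka4, which encodes the kinase MSK2, had -0.39 and 0.28, and Braf went the other way with 0.28 and -0.21. Cdh1, the E-cadherin gene, had -0.0558 and 0.15.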

How the results depend on the processing

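Among the members' ratios and medians, the sign turned under an alternative for Nr4a1 alone, in grown-out over uninduced cells, with a log2 ratio of 0.01 under DESeq2 scaling against -0.03, both within counting error, and all 6 measured members stayed lower at 48 h under the 3 other scalings, which shifted ratios by at most 0.04 (log2). A pseudocount of 0.5 left 22, 25 and 24 measured genes past 2-fold at 48 h, in grown-out cells and for grown-out over 48 h, against 60, 70 and 81. A minimum of 2 RPKM left 24, 18 and 23, and 4 members; 1 of these was then higher in grown-out cells than at 48 h, against 2 of 6. With no minimum there were 130, 253 and 236, and 1 member, Srf, was higher in grown-out than uninduced cells, against 0. TMM or DESeq2 scaling put 3 members higher in grown-out cells than at 48 h. Egr3 passed 2-fold in grown-out cells only with no pseudocount, at a log2 ratio of -1.56. Causes were not tested. Depth limits Egr2 and Egr3 most, at 18 reads or fewer per library. No paired analysis was possible because each condition had 1 library.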

Other observations

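Of the 20 models nearest to the members on the chromosome, 1 on each side of each, 11 were measured, and 0 were past 2-fold in any comparison. Over all measured genes, 0.720% were past 2-fold lower at 48 h and in grown-out cells, and 0.0379% and 0.164% higher. With 11 genes, a count of 0 lies near that background and is no result about the neighbours. The median log2 ratio of the measured neighbours was -0.06 at 48 h and -0.01 in grown-out cells. Etf1, a translation termination gene 37828 bases downstream of Egr1 and on the other strand, had 6.48 RPKM at 48 h and 6.32 in grown-out cells, against 6.23 in uninduced cells. Nacc1, upstream of Ier2, had 2.52 and 2.53 RPKM, against 2.01. Flot1, the membrane scaffold gene that starts 445 bases beyond the end of Ier3 on the same strand, had 0.891 and 0.920 RPKM, against 1.21, log2 ratios of -0.42 and -0.38; whether reads run on from Ier3 was not tested. The lowest neighbour at 48 h was Neurl1b, beside Dusp1, with a log2 ratio of -0.87 at 48 h and -0.05 in grown-out cells.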
